A study of Mus musculus with 12 samples.

Results

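The 78 mouse genes described here are the mitochondrial ribosomal protein genes, taken as every symbol of the deposited table made of Mrpl or Mrps, a number and at most 1 further letter. They were 49 Mrpl genes, named for the large (39S) subunit of the mitochondrial ribosome, and 29 Mrps genes, named for the small (28S) subunit, out of 28643 symbols analysed. All 78 matched a protein-coding gene of the GENCODE M21 annotation of GRCm38, none was listed at 0 in any library, and all 78 passed the filter on low values in every comparison. Values in the table are FPKM, a read density per transcript length and per library.

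Round spermatids, the haploid germ cells that form after meiosis, were sorted by flow cytometry from 8-week-old male mice while cycloheximide held ribosomes on the mRNA. Control mice were heterozygous (Igf2bp3+/-) and knockout mice homozygous (Igf2bp3-/-) for a Cas9 frameshift in the gene of an RNA-binding protein that reads N6-methyladenosine, so the controls also carried 1 mutant copy. Per the methods, the knockout males of these experiments were chosen for impaired fertility. From each genotype, total mRNA was sequenced as RNA-seq, and mRNA with 4 or more ribosomes, taken from a sucrose gradient, as RNC-seq, the sequencing of ribosome nascent-chain complexes. Per the methods, both assays drew on the same lysate of a mouse's sorted cells. Each of the 4 groups held 3 replicates, 12 libraries in all, and the study asked how loss of the protein changes mRNA level and translation. In such bulk libraries, fewer cells of a type and less RNA per cell cannot be told apart.

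Mitochondrial ribosomes are made in the matrix from rRNAs encoded by the mitochondrial genome and from proteins that are encoded in the nucleus, translated on cytosolic ribosomes and imported. They translate only the few mRNAs of the mitochondrial genome, all for subunits of the respiratory chain and ATP synthase. An mRNA of an Mrpl or Mrps gene is therefore read by the cytosolic ribosome. Its RNC-seq value is taken below as a measure of that reading and not of the work of the mitochondrial ribosome itself. RNAs that cytosolic ribosomes do not read were also enriched in RNC-seq, as given near the end, so enrichment alone does not establish translation. Round spermatids keep active mitochondria, which later form the sheath of the sperm midpiece.

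Read counts are not part of the table, and sequencing depth is unknown. The summed FPKM ran from 459762 to 509397 in RNA-seq and from 555464 to 624792 in RNC-seq, and libraries of the same assay correlated at 0.973 to 0.990 in RNA-seq and at 0.946 to 0.984 in RNC-seq over 12265 genes. The single transcript CT010467.1 took between 5.68% and 19.4% of the sum. Igf2bp3 mRNA itself, which a frameshift need not remove, was 38.2, 38.6 and 33.4 FPKM in Igf2bp3+/- RNA-seq and 31.7, 32.5 and 31.4 FPKM in Igf2bp3-/- RNA-seq, a log2 difference of -0.20 ± 0.09 (SE; limma adjusted p 0.335), so this level does not check the labels. The 10 round spermatid markers summed to 1263 to 1400 FPKM in Igf2bp3+/- RNA-seq and 1573 to 1791 FPKM in Igf2bp3-/- RNA-seq. The 7 Leydig cell markers, genes of the steroid-producing cells between the tubules, summed to 15.4 to 22.6 FPKM and 48.6 to 55.0 FPKM in the same groups, and none was at 0.

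Some short sequences, which the choice of members did not use, were more frequent in the promoters of these genes than in all promoters. RefSeq promoters, from 250 bases before to 50 bases after the annotated start on GRCm38.p6, were matched by symbol for 69 of the 78. CCGGAAG, the core bound by ETS-family activators, stood on either strand in 26 of the 69 (37.7%), against 9.93% of all 27025 genes with a promoter sequence and 12.9% of the 17492 protein-coding ones. GCGCANGCG, bound by NRF1, a regulator of nuclear genes for mitochondria, stood in 16 (23.2%), against 7.03% and 9.63%. AAGATGGC, bound by YY1, stood in 12 (17.4%), against 3.19% and 3.57%. CCAAT stood in 27 (39.1%), against 41.1% of all promoters, and TATAAA in 5 (7.25%), against 15.7%. These 5 sequences were kept after counts of other motifs had been seen, and a match is not a binding site. The following stretches show the ETS and NRF1 sequences in capitals in members described below, on the strand of the gene and outside every annotated exon. For Mrpl12 (chr11:120484532-120484590, plus strand), Mrpl52 (chr14:54426837-54426893, plus strand), Mrpl58 (chr11:115403710-115403751, plus strand), Mrps27 (chr13:99344713-99344769, plus strand) and, in its ETS and then its NRF1 stretch, Mrpl17 (chr7:105811293-105811337 and chr7:105811103-105811161, minus strand) they read as follows.
Mrpl12: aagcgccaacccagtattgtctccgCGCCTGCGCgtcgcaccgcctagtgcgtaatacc
Mrpl52: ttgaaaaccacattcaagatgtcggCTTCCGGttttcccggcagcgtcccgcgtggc
Mrpl58: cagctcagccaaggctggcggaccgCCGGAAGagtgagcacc
Mrps27: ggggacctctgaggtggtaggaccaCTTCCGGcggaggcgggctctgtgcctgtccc
Mrpl17 (ETS): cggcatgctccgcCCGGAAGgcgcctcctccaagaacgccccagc
Mrpl17 (NRF1): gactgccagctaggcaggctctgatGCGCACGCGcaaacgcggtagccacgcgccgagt
The median log2 RNA-seq change between genotypes was 0.30 in members with the ETS sequence and 0.31 in those without it. It was 0.32 with and 0.29 without the NRF1 sequence, and 0.37 with and 0.28 without the YY1 sequence, and these differences were not tested.

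Levels differed widely within the group. Averaged over the 6 RNA-seq libraries, the members ran from 0.433 FPKM to 132.6 FPKM, a 306-fold range, with quartiles of 3.40, 11.2 and 27.8 FPKM. The median over all genes above 0.1 FPKM was 1.96 FPKM. The Mrpl genes had a median of 14.7 FPKM and the Mrps genes 7.28 FPKM. Only 3 members lay under 1 FPKM and 6 over 50 FPKM, and the 5 most abundant held 33.5% of the summed FPKM of all members. Of the 77 pairs of neighbours in the order of level, 76 had overlapping library ranges, so the order is not resolved gene by gene. The exception was the step from Mrpl39 to Mrpl30.

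The 5 most abundant members all belonged to the large subunit by symbol. Mrpl20 (chr4:155802878-155809975), a subunit also known in bacteria, measured 124, 123 and 94.7 FPKM in Igf2bp3+/- RNA-seq and 139, 154 and 162 FPKM in Igf2bp3-/- RNA-seq. Mrpl54 measured 102, 101 and 82.9 FPKM against 120, 132 and 147 FPKM. Mrpl51, Mrpl39 and Mrpl30 followed with Igf2bp3+/- means of 97.3 ± 13.0, 87.1 ± 3.94 and 57.2 ± 7.30 FPKM (SD, n = 3). In each of the 5 the 3 knockout libraries all lay above the 3 control libraries, as they did in 14.1% of all genes. None of the 5 passed the test between genotypes described below.

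At the other end stood Mrps35, Mrpl19, Mrpl58, Mrps27 and Mrpl27. Mrps35 (chr6:147042764-147073991) measured 0.366, 0.609 and 0.396 FPKM in Igf2bp3+/- RNA-seq and 0.457, 0.328 and 0.441 FPKM in Igf2bp3-/- RNA-seq. Mrpl19 averaged 0.456 ± 0.0377 FPKM in Igf2bp3+/- RNA-seq, and Mrpl58, the peptidyl-tRNA hydrolase that rescues stalled mitochondrial ribosomes, 0.857 ± 0.124 FPKM. The values of Mrps27 and Mrpl27 were 0.999 ± 0.271 and 1.10 ± 0.345 FPKM (SD, n = 3 in each case). The genotypes overlapped in all 5, and Mrpl27 shares sequence with the pseudogene Gm6304, so its reads may be split. On the opposite strand, Gcfc2 overlaps 36% of the exons of Mrpl19 and 6430562O15Rik 24.2% of those of Mrps27.

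**Figure D1:**
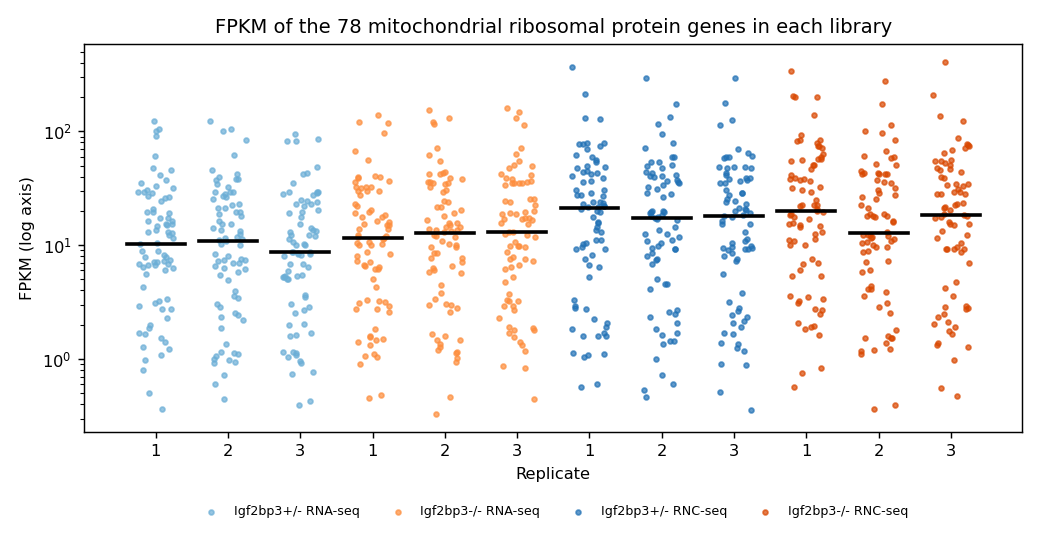
FPKM on a log axis of each of the 78 members (points) in the 12 libraries, with the median of the members as a black bar. The medians lie between 8.73 and 13.0 FPKM in the 6 RNA-seq libraries and between 12.7 and 21.2 FPKM in the 6 RNC-seq libraries.

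Proteins of functional sites did not share a common level. Mrps12, which lines the decoding centre, averaged 23.1 ± 3.65 FPKM in Igf2bp3+/- RNA-seq, whereas Mrps7, also of the small subunit, measured 1.64, 1.16 and 1.68 FPKM. Mrps2 and Mrps5 averaged 3.08 ± 0.276 and 2.53 ± 0.443 FPKM. In the large subunit, Mrpl12 of the stalk that recruits translation factors averaged 45.5 ± 2.25 FPKM and Mrpl11 of the stalk base 11.8 ± 1.62 FPKM. Mrpl4 and Mrpl16 averaged 16.1 ± 2.56 and 13.9 ± 0.657 FPKM, but Mrpl3, which reaches towards the peptidyl transferase centre, 3.63 ± 0.609 FPKM and Mrpl44 3.22 ± 0.426 FPKM (SD, n = 3 throughout). Among the Mrps18 paralogs, Mrps18a averaged 30.5 ± 1.78 FPKM, Mrps18b 24.8 ± 0.627 FPKM and Mrps18c 7.38 ± 0.644 FPKM. Mrps18c occupies the place of the bacterial S18 protein, and Mrps18a sits in the large subunit in spite of its symbol. Exons of Mrps18c and Gm43511 overlap over 23.2% of Mrps18c on the same strand, and those of Mrps18b and Gm16279 over 30.5% on the opposite strand.

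The first comparison set RNC-seq against RNA-seq within Igf2bp3+/-, which asks how much of each mRNA travelled with 4 or more ribosomes relative to the other mRNAs. Mitochondrial ribosomal protein mRNAs were mostly enriched in the polysome fraction. The median log2 difference was 0.66 over the members and -0.09 over all 17942 genes tested, and 70 of the 78 lay above 0. In limma's moderated test with Benjamini-Hochberg adjustment over all genes, 49 members (62.8%) were higher in RNC-seq and 3 (3.85%) lower, where 18.6% of all genes were higher and 25.1% lower. The other 26 did not pass. By subunit, 34 of 49 Mrpl genes were higher and none lower (median 0.73), and 15 of 29 Mrps genes were higher and 3 lower (median 0.57).

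Small subunit protein Mrps33 stood at the top. It measured 3.24, 2.36 and 1.98 FPKM in Igf2bp3+/- RNA-seq and 14.4, 9.25 and 9.13 FPKM in RNC-seq, a log2 difference of 2.06 ± 0.24 (SE, adjusted p = 0.000317, limma). All 3 RNC-seq libraries lay above all 3 RNA-seq libraries, as in 55 of the 78 members and 4129 of all 17942 genes. Mrpl33, a short protein of the large subunit, went from 15.3, 17.9 and 12.3 FPKM to 78.0, 53.6 and 48.9 FPKM, a difference of 1.97 ± 0.21. Mrps14 followed with 12.2, 11.8 and 8.45 FPKM against 49.3, 36.2 and 38.8 FPKM, a difference of 1.93 ± 0.19. Mrpl36, among the shortest ribosomal proteins, and the abundant Mrpl20 differed by 1.65 ± 0.15 and 1.49 ± 0.15, and their adjusted p-values in limma were 0.000119 and 0.000169. For Mrpl20 the RNC-seq values were 371, 294 and 294 FPKM, so it led the group in both assays.

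The subunit Mrps26 behaved in the opposite way. It measured 6.35, 5.85 and 6.44 FPKM in Igf2bp3+/- RNA-seq but 2.05, 4.57 and 2.35 FPKM in RNC-seq, a log2 difference of -1.12 ± 0.28 (adjusted p = 0.0111, limma). Mrps2 measured 3.38, 3.03 and 2.83 FPKM against 1.61, 1.84 and 1.65 FPKM, a difference of -0.82 ± 0.18 (adjusted p = 0.00562, limma). For Mrps6 the values were 7.93, 10.3 and 10.6 FPKM against 6.70, 6.82 and 7.33 FPKM, a difference of -0.45 ± 0.16 that passed narrowly (adjusted p = 0.0473, limma). In each of the 3 the RNC-seq libraries all lay below the RNA-seq libraries, as they did in 5836 of all 17942 genes. Gm49711 and Slc5a3 together overlap 19.9% of the exons of Mrps6 on the same strand. The call of Mrps6 was lost in 8 of the 10 alternatives, that of Mrps26 without replicate 1 or 3 and that of Mrps2 without replicate 1. Mrps7 and Mrpl54 came next from the bottom with -0.35 ± 0.23 and -0.21 ± 0.22, neither of which passed (adjusted p = 0.257 and 0.484, limma). Mrpl54 was thus the second most abundant member in RNA-seq and among the lowest in loading, with 102, 101 and 82.9 FPKM against 78.2, 116 and 60.0 FPKM.

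Loading also differed among the proteins of functional sites and among the paralogs. Mrpl3 went from 4.26, 3.59 and 3.04 FPKM to 11.1, 9.46 and 9.53 FPKM, a difference of 1.45 ± 0.17. Its coding sequence of 1044 bases is among the longer ones of the group. Mrps12 differed by 0.93 ± 0.16, Mrpl44 by 0.80 ± 0.18, Mrpl11 by 0.75 ± 0.15, Mrpl12 by 0.74 ± 0.12, Mrpl4 by 0.73 ± 0.16 and Mrpl16 by 0.52 ± 0.13, and all of these passed the test. The difference of Mrps5 was 0.17 ± 0.20 and did not. Mrps18c, with 7.25, 8.08 and 6.81 FPKM against 23.8, 16.9 and 19.2 FPKM, differed by 1.41 ± 0.16, while Mrps18a and Mrps18b differed by 0.65 ± 0.14 and 0.66 ± 0.12.

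FPKM is relative within a library, so these differences depend on the scaling between assays. Rescaling every library to the same sum after leaving out CT010467.1 moved the median of all genes to -0.29 and that of the members to 0.43, and 38 members were then higher and 3 lower. Without replicate 1, 32 members were higher and none lower.

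In Igf2bp3-/- the same comparison gave a median of 0.50 over the members and -0.04 over all 18456 genes, with 68 of 78 above 0. Of the members 25 (32.1%) were higher and none lower, where 10.1% of all genes were higher and 10.9% lower. These calls depended on the libraries used. Without replicate 1 or without replicate 3 no member was called, and only 3 genes and 1 gene were called in all, while 18 and 34 members were higher at an unadjusted p under 0.05, against 44 with all 3 replicates. Without replicate 2, 29 members were higher. Rescaling without CT010467.1 gave 17 higher and 2 lower, a median of 0.28 over the members and -0.23 over all genes. Mrps33 measured 3.18, 3.83 and 3.75 FPKM in Igf2bp3-/- RNA-seq and 13.0, 6.01 and 15.3 FPKM in RNC-seq, a difference of 1.54 ± 0.32, and it was again the highest member. Of the 25 calls, 24 (96.0%) were also among the 49 of Igf2bp3+/- (49.0% of those), and the remaining one was Mrps36, now assigned to the alpha-ketoglutarate dehydrogenase complex, with 0.69 ± 0.20 in Igf2bp3-/- and 0.49 ± 0.19 in Igf2bp3+/-. The difference between those values did not pass (0.20 ± 0.29, adjusted p = 0.869, limma). Loading in the 2 genotypes, which come from separate libraries, had a Pearson r of 0.85 (Spearman 0.83) over the 78 members, whose lengths and annotation both sides share.

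**Figure D2:**
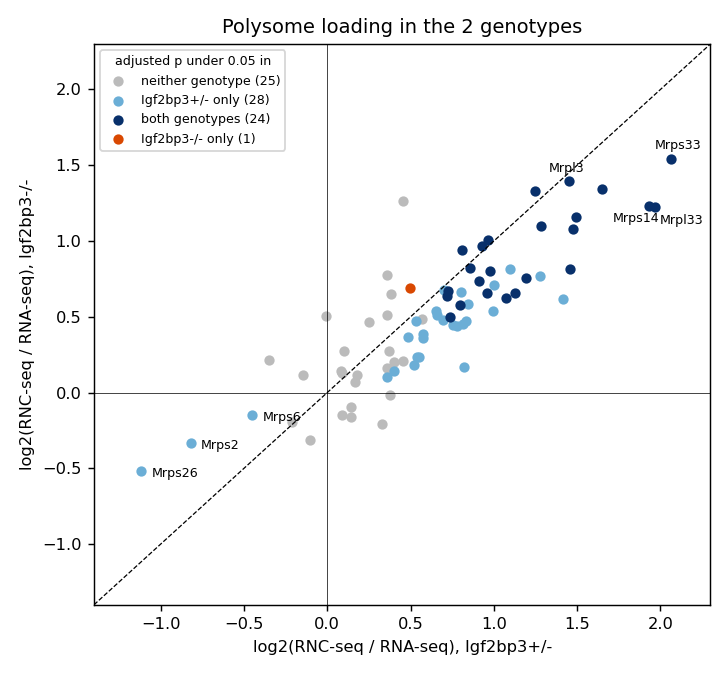
Polysome loading, the log2 difference between RNC-seq and RNA-seq, of each of the 78 members in Igf2bp3+/- (horizontal) and Igf2bp3-/- (vertical), coloured by the genotypes in which the adjusted p was under 0.05, with the line of equal values dashed. Of the 78, 65 are above 0 in both genotypes and 58 lie below the dashed line.

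Shorter coding sequences went with higher loading, among the members and among all genes. Across the 78 members, loading in Igf2bp3+/- and log2 coding length had a Pearson r of -0.37 (Spearman -0.39), and in Igf2bp3-/- of -0.47 (Spearman -0.47). Over all 12277 genes with a coding length the values were -0.57 and -0.54. These are descriptions across genes that share libraries, and genes are not independent replicates. Because of this relation the members were set beside other genes of like coding length. Up to 450 bases the median loading in Igf2bp3+/- was 0.93 in 23 members and 0.65 in 972 other genes. From 450 to 600 bases it was 0.77 in 18 members against 0.38, from 600 to 900 bases 0.53 in 22 members against 0.17, and from 900 to 1500 bases 0.38 in 15 members against -0.11. In these classes 16 of 23, 14 of 18, 17 of 22 and 15 of 15 members lay above the median of the other genes. In Igf2bp3-/- the member medians of the 4 classes were 0.69, 0.51, 0.47 and 0.20, against 0.57, 0.30, 0.11 and -0.06.

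**Figure D3:**
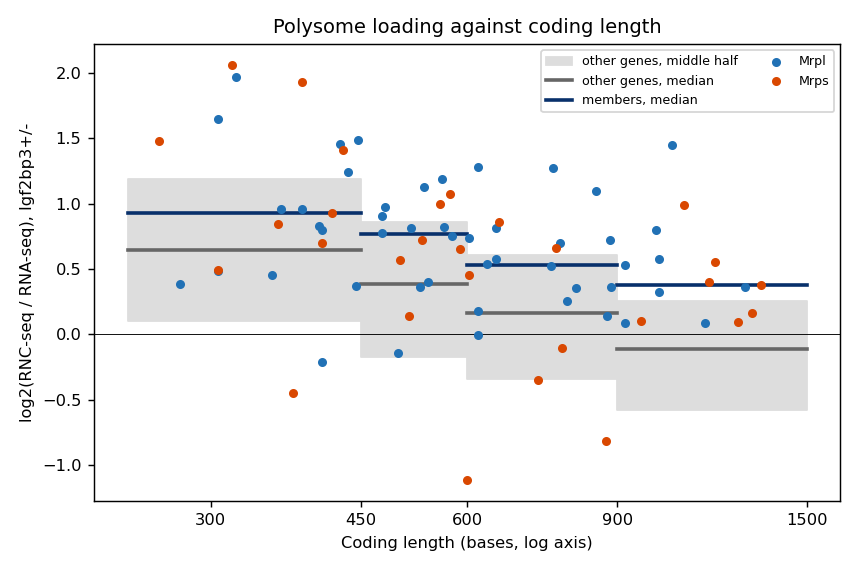
Polysome loading in Igf2bp3+/- against coding length in bases (log axis) for the 78 members, with Mrpl and Mrps genes in separate colours. Blue lines give the median of the members and grey lines and bands the median and interquartile range of other genes in 4 classes of length, and the blue line is above the grey line in every class.

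The second question was how loss of Igf2bp3 changed the mRNA level. RNA-seq values of the members were mostly somewhat higher in the knockout, but no single member passed the adjusted limit. The median log2 change was 0.30 over the members and 0.05 over all 20352 genes tested. Of the 78 members 68 lay above 0, and of all genes 56.2%. Other genes of like coding length were nearer to the members than all genes were. Their medians were 0.19, 0.19, 0.15 and 0.09 in the 4 length classes above, against 0.33, 0.33, 0.30 and 0.23 in the members. With limma and adjustment over all genes, 0 members passed, where 52 genes did so in all (0.256%). Read at an unadjusted p below 0.05, 34 members (43.6%) were higher and 0 lower, against 10.4% and 5.32% of all genes. In 40 members (51.3%) all 3 knockout libraries lay above all 3 control libraries, against 14.1% of all genes. The median of the members in each library was 10.3, 10.9 and 8.73 FPKM in Igf2bp3+/- and 11.5, 12.7 and 13.0 FPKM in Igf2bp3-/-, without overlap. The medians were 0.31 for Mrpl and 0.23 for Mrps, and 0.29 for the 54 members with no near copy and no exon overlap of 10% or more.

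Mrpl35, of the large subunit, had the smallest p. It measured 7.14, 6.97 and 6.78 FPKM in Igf2bp3+/- and 10.0, 10.0 and 11.7 FPKM in Igf2bp3-/-, a log2 difference of 0.59 ± 0.11 (adjusted p = 0.104, limma). Mrps18c measured 7.25, 8.08 and 6.81 FPKM against 10.2, 10.9 and 12.4 FPKM, also a difference of 0.59 ± 0.12 (adjusted p = 0.132, limma). For Mrpl12 the values were 47.9, 45.4 and 43.4 FPKM against 55.6, 62.6 and 63.5 FPKM, a difference of 0.41 ± 0.09 (adjusted p = 0.152, limma). None of the 3 overlapped between genotypes. Gm16755 overlaps 13.1% of the exons of Mrpl12 on the opposite strand. The value of Mrps14 was the highest of the group at 0.65 ± 0.16 (adjusted p = 0.167, limma). Among the members of functional sites, the differences of Mrps12, Mrpl4, Mrpl11, Mrpl16 and the paralogs Mrps18a and Mrps18b lay between 0.31 and 0.48 with unadjusted p under 0.05 in each, whereas those of Mrpl3 (0.23), Mrps5 (0.17), Mrpl44 (-0.01), Mrps7 (-0.02) and Mrps2 (-0.09) had larger p-values.

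Of the 10 members with values below 0, the 3 with the smallest p were Mrps26, Mrpl52 and Mrpl17. Mrps26 measured 6.35, 5.85 and 6.44 FPKM against 5.05, 5.67 and 6.13 FPKM, a difference of -0.15 ± 0.12. Mrpl52 and Mrpl17 differed by -0.20 ± 0.17 and -0.21 ± 0.26, and the genotypes overlapped in all 3. The value of Mrpl17 turned to 0.0088 without replicate 1 of Igf2bp3+/-.

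The number of members higher at an unadjusted p under 0.05 varied with the libraries used. It was 16 without replicate 3 of Igf2bp3-/-, 22 without replicate 2 of Igf2bp3-/- and 22 without replicate 3 of Igf2bp3+/-, and it lay between 33 and 36 without each of the others. At the same limit 2 members were lower without replicate 3 of Igf2bp3+/- and 1 without its replicate 2. Rescaling without CT010467.1 moved the median of all genes to -0.07 and that of the members to 0.18, with 62 of 78 above 0. The Leydig and round spermatid marker sums given above moved in the same direction as the members, and so did those of the 7 blood and macrophage markers, at 4.58 to 5.54 FPKM in Igf2bp3+/- and 10.9 to 11.6 FPKM in Igf2bp3-/-, and of the 6 Sertoli markers, at 1.90 to 2.23 and 2.54 to 2.63 FPKM. Of the 5 Sertoli markers tested singly, 3 were above 0 and 2 below. Other lists were mixed. Their median log2 changes were -0.35 for peritubular, -0.083 for elongating spermatid, 0.0057 for spermatogonia and 0.092 for spermatocyte markers. In the same order, 1 of 4, 2 of 6, 3 of 6 and 6 of 7 genes tested lay above 0. Most spermatocyte markers thus also moved in the direction of the members. The part of the marked cell types in the result was not tested.

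**Figure D4:**
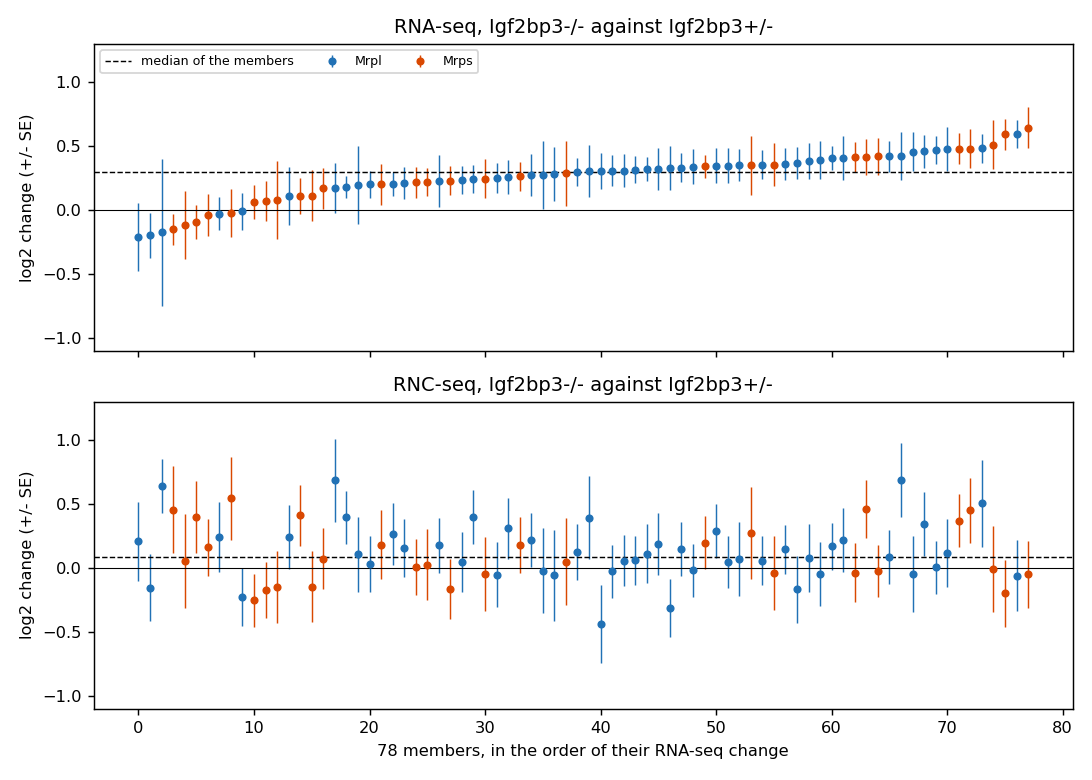
log2 change between Igf2bp3-/- and Igf2bp3+/- with its standard error for each of the 78 members in RNA-seq (top) and RNC-seq (bottom), both in the order of the RNA-seq change, with the median of the members dashed. The RNA-seq values are above 0 in 68 members and the RNC-seq values in 53.

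In the polysome fraction the median of the members lay close to that of all genes and varied with the libraries used. The median log2 RNC-seq change was 0.08 over the members and 0.13 over all 19051 genes tested. Of the members 53 of 78 (67.9%) lay above 0, and of all genes 65.3%. None passed the adjusted limit in limma, where 22 genes did in all (0.115%). At an unadjusted p under 0.05, 2 members (2.56%) were higher and 0 lower, against 5.36% and 1.12% of all genes, and in 11 members (14.1%) the knockout libraries all lay above the controls, against 9.44%. The median of the members was 21.2, 17.2 and 17.9 FPKM in Igf2bp3+/- and 19.8, 12.7 and 18.5 FPKM in Igf2bp3-/-, with replicate 2 of Igf2bp3-/- the lowest. The sign of the group's change varied with the setting. It was 0.24 without replicate 2 of Igf2bp3-/-, -0.0073 without its replicate 1, and between -0.050 and -0.035 under each of the 3 other scalings. Across the members, the RNA-seq and RNC-seq changes had a Pearson r of -0.12.

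Mrpl53 and Mrpl49 were the 2 with an unadjusted p under 0.05. Mrpl53 measured 42.9, 35.0 and 48.1 FPKM in Igf2bp3+/- RNC-seq and 73.9, 67.8 and 54.7 FPKM in Igf2bp3-/- RNC-seq, a difference of 0.64 ± 0.21 (adjusted p = 0.689, limma), but Gm42688 overlaps 88.0% of its exons on the same strand and its RNA-seq values ran from 10.1 to 55.3 FPKM. Mrpl49 measured 1.05, 1.45 and 0.884 FPKM against 1.92, 1.54 and 2.11 FPKM, a difference of 0.69 ± 0.29. Mrpl58 measured 1.11, 0.604 and 0.901 FPKM against 1.93, 1.17 and 1.27 FPKM, a difference of 0.69 ± 0.33. In all 3 the knockout libraries lay above the controls. The lowest p-values below 0 belonged to Mrpl33, Mrpl42 and Mrps9, with -0.44 ± 0.30, -0.31 ± 0.22 and -0.25 ± 0.21, and their libraries overlapped. Mrpl42 shares sequence with the pseudogene Gm6419.

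Translational efficiency (TE) is the RNC-seq value over the RNA-seq value, and its difference between genotypes is the RNC-seq change less the RNA-seq change, tested as an interaction over all 12 libraries. The members leaned towards lower TE in the knockout and no single member passed. Their median was -0.19, against 0.06 over all 18414 genes tested, with 20 of 78 above 0. Only 1 gene passed in the whole table (0.00543%), and it was no member. At an unadjusted p under 0.05, 3 members (3.85%) were lower and 0 higher, against 1.58% and 5.54% of all genes. The count of 3 was 16 with median centring of the libraries, 10 with quantile normalization, 8 with rescaling without CT010467.1, 5 with the replicate number within genotype as a block, and 0 without replicate 1 of Igf2bp3+/- or replicate 2 of Igf2bp3-/-. The group's median was -0.043 without replicate 2 of Igf2bp3-/-, -0.35 without its replicate 1 and -0.11 without its replicate 3.

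The lowest p belonged to Mrps18c, whose RNC-seq values of 23.8, 16.9 and 19.2 FPKM in Igf2bp3+/- and 17.5, 12.3 and 23.5 FPKM in Igf2bp3-/- overlapped while its RNA-seq values did not. Its TE difference was -0.79 ± 0.30 (adjusted p = 0.686, limma). Mrpl42 and Mrpl13 followed with -0.64 ± 0.28 and -0.47 ± 0.21. For Mrpl13, RNA-seq measured 8.81, 10.1 and 8.24 FPKM in Igf2bp3+/- and 12.2, 12.3 and 13.1 FPKM in Igf2bp3-/-, while the RNC-seq means were 19.9 FPKM in both genotypes. In the other direction Mrps2, Mrps26 and Mrps7 had 0.49 ± 0.29, 0.60 ± 0.39 and 0.56 ± 0.38, with adjusted p-values in limma of 0.725 to 0.748. These were also the 3 of the members with the lowest loading in Igf2bp3+/-, apart from Mrps6, and the comparisons share those libraries.

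**Figure D5:**
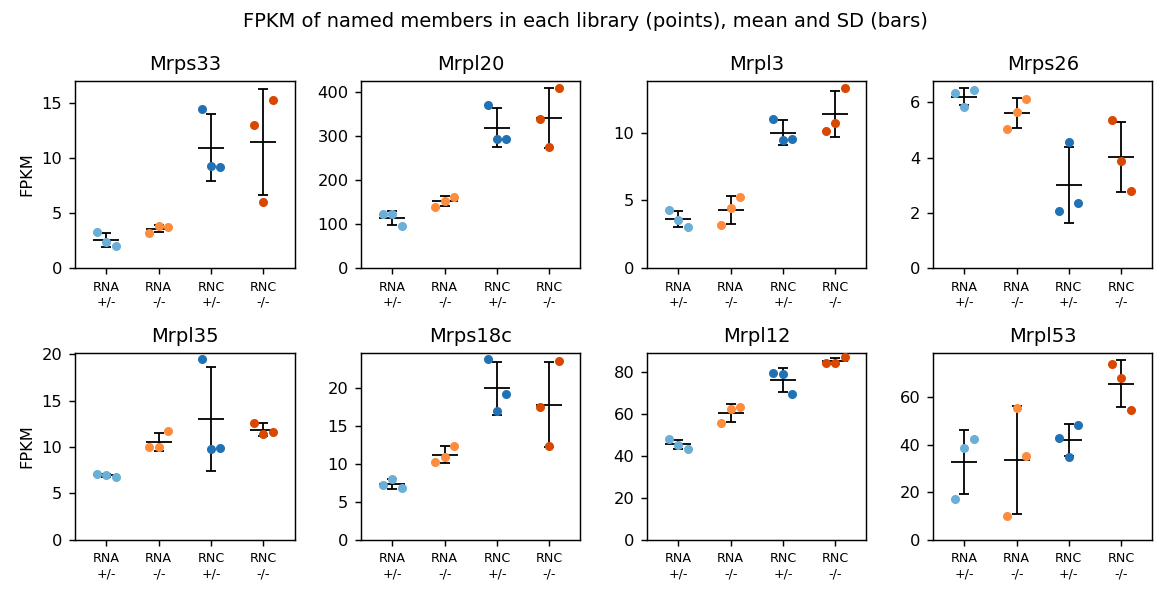
FPKM of 8 named members in every library (points) with the mean and SD of each group of 3 (bars), for RNA-seq and RNC-seq of Igf2bp3+/- and Igf2bp3-/-. RNC-seq is above RNA-seq in Mrps33, Mrpl20 and Mrpl3 and below it in Mrps26 of Igf2bp3+/-, and the RNA-seq points of the genotypes do not overlap in Mrpl35, Mrps18c and Mrpl12.

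Other genes of mitochondrial translation were taken from short lists of known factors. Their counts stand beside 18.6% of all genes higher and 25.1% lower in the loading of Igf2bp3+/-. The 5 mitochondrial ribosomal proteins with other symbols had a median loading of 0.62 in Igf2bp3+/-, and 3 of them were higher. Chchd1 of the small subunit averaged 28.5 ± 3.06 FPKM in RNA-seq and 70.7 ± 7.23 FPKM in RNC-seq, a difference of 1.31 ± 0.13, and Aurkaip1 differed by 1.13 ± 0.13. The GTP-binding Dap3 of the small subunit did not pass (-0.13 ± 0.15). Of 16 translation factors tested, 3 were higher and 2 lower (median 0.07). The mRNA of Mief1, a transcript that also encodes a short mitochondrial ribosome-associated protein, was lower by -1.20 ± 0.12 and that of Lrpprc, which stabilises mitochondrial mRNAs, by -1.12 ± 0.16, whereas Slirp, the partner of Lrpprc, was higher by 1.78 ± 0.28. Among 21 assembly factors 3 were higher and 3 lower (median -0.02), with Nsun4, an rRNA methyltransferase of the mitochondrial ribosome, at -1.74 ± 0.17 and Malsu1 at 0.98 ± 0.22. Of 20 mitochondrial aminoacyl-tRNA synthetases and amidotransferase subunits, 2 were higher and 2 lower (median -0.07), and Aars2 and Gars differed by -0.66 ± 0.14 and -0.60 ± 0.14.

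Larger lists of translated machinery lay on the same side as the members. Of 82 cytosolic ribosomal protein genes tested, 75 were higher in RNC-seq of Igf2bp3+/- and none lower (median 1.20), and of 96 genes with symbols of the oxidative phosphorylation complexes and their assembly factors, 73 were higher and 2 lower (median 1.13). In the RNA-seq comparison of genotypes these lists had medians of 0.23 and 0.27, with 1 of 82 and 0 of 97 genes called. The smaller lists had medians of 0.23 for the other mitochondrial ribosomal proteins, 0.07 for translation factors, 0.12 for assembly factors and 0.08 for synthetases, with no gene called in any of the 4. Aurkaip1 averaged 26.9 ± 2.64 FPKM in Igf2bp3+/- and 36.9 ± 0.924 FPKM in Igf2bp3-/-, a difference of 0.46 ± 0.10. The mitochondrial leucyl-tRNA synthetase gene Lars2 averaged 111 ± 10.2 FPKM and 65.7 ± 18.6 FPKM, a difference of -0.80 ± 0.19 (adjusted p = 0.163, limma). For TE the medians were -0.37 for cytosolic ribosomal proteins and -0.24 for oxidative phosphorylation genes, beside -0.19 for the members.

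The RNAs encoded by the mitochondrial genome, among them both rRNAs of the mitochondrial ribosome, were looked at after their values had been seen. Cytosolic ribosomes do not read them, so loading here is only the log2 difference between the assays. What their presence in RNC-seq means for the loading of the members was not tested. Per the methods, RNA of both assays was selected for poly(A) tails, so these FPKM need not follow the amounts of the RNAs. The 2 rRNAs of this ribosome averaged 448 FPKM (mt-Rnr2) and 20.3 FPKM (mt-Rnr1) in Igf2bp3+/- RNA-seq. The large-subunit rRNA mt-Rnr2 measured 453, 489 and 403 FPKM in Igf2bp3+/- RNA-seq and 308, 379 and 330 FPKM in Igf2bp3-/- RNA-seq. In RNC-seq it measured 7154, 3128 and 6797 FPKM in Igf2bp3+/- and 2663, 3006 and 6514 FPKM in Igf2bp3-/-. Its loading was 3.58 ± 0.29 in Igf2bp3+/- and 3.47 ± 0.31 in Igf2bp3-/- (adjusted p = 6.9e-05 and 0.00108, limma). The small-subunit rRNA mt-Rnr1 averaged 20.3 ± 6.02 FPKM in RNA-seq and 81.4 ± 27.8 FPKM in RNC-seq of Igf2bp3+/-. The 13 mRNAs of the mitochondrial genome, the templates of the mitochondrial ribosome, had a median loading of 2.20 in Igf2bp3+/-, with 10 higher and none lower, and of 1.67 in Igf2bp3-/-, with 8 higher and none lower. Of all genes, 18.6% were higher in Igf2bp3+/- and 10.1% in Igf2bp3-/-. Some of the 13 were low. In Igf2bp3+/- RNA-seq mt-Nd3 averaged 0.329 FPKM and mt-Nd4l 0.613 FPKM. The value of mt-Nd2 was 0 in replicate 1 of Igf2bp3+/- RNC-seq and replicate 3 of Igf2bp3-/- RNA-seq. The summed FPKM of the 13 mRNAs was 1334, 631 and 1153 in Igf2bp3+/- RNC-seq and 659, 453 and 811 in Igf2bp3-/- RNC-seq. Between genotypes their median change was -0.27 in RNA-seq and -0.71 in RNC-seq, with 0 called in limma, and 4 and 6 of them respectively were lower when read at an unadjusted p below 0.05. At that limit 5.32% and 1.12% of all genes were lower. The medians of the nuclear-encoded members and of the mitochondrially encoded mRNAs thus lay on opposite sides of 0 in RNA-seq, while 3 of the 13 mRNAs were above 0, 10 of the 78 members were below it, and neither set held a call.

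Across libraries most members followed the median of the group. Correlated with the per-library median of the group over the 12 libraries, on the log2(FPKM + 0.1) scale, the members had a median Pearson r of 0.83, and 44 of 78 (56.4%) were over 0.8. Each member is itself part of that median. Of 12189 other genes with a mean of at least 1 FPKM, 2767 (22.7%) were also over 0.8, and their median r was 0.064. Among the members only 7 were under 0, namely Mrps2 (-0.83), Mrps26 (-0.74), Mrps6 (-0.71), Mrps15 (-0.24), Mrps7 (-0.090), Mrps27 (-0.082) and Mrpl54 (-0.032). Outside the group, the genes most like that median were AA467197 (r = 0.988), Polr3k (0.987) and A430005L14Rik (0.986). These values are descriptions over 12 libraries of 4 groups, in which the difference between assays carries much of the variation.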

How the data were processed

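Sorted round spermatids of Igf2bp3+/- and Igf2bp3-/- mice were profiled by RNA-seq and RNC-seq, with 3 libraries in each of 4 groups. The authors deposited 1 table of FPKM, normalized for transcript length and library size. Per the labels and methods, reads were trimmed with Trim Galore 0.6.6, mapped with HISAT2 (GRCm38) and turned into FPKM by StringTie 2.1.7. The annotation release and the use of strand are not given in the sources used here, and the labels and methods name different library kits and instruments. Per the methods, RNA-seq used a small share of a mouse's lysate and RNC-seq the rest, so the assays are paired by mouse, but no source used here ties a replicate number to a mouse. The fits without a block treat the libraries as independent, and the block by number is given as an alternative. Columns named WT hold the Igf2bp3+/- libraries.

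Of 28668 symbols, 25 turned into dates by spreadsheet software were left out (0.0995% of the summed FPKM). Values were analysed as log2(FPKM + 0.1), a scale that understates changes of low genes, with limma 3.58.1 in R 4.3.3 and an intensity trend, among genes with a mean FPKM above 0.1 (in both assays for TE and loading). Tests were two-sided and adjusted by Benjamini-Hochberg over all genes tested, with a limit of 0.05. Library depth is unknown, so no counting interval is given. The script was tested on simulated data. Members, lists and named genes were chosen with earlier results of these data known. Named were the 5 highest and lowest levels, the 3 smallest p-values per direction and genotype comparison, the 5 highest and lowest loadings, and a list of paralogs and functional-site proteins, while Mrps36, Mrps14 in RNA-seq, Mrps15 and the mitochondrially encoded RNAs were named after their values were seen. Near copies were sought with BLAST 2.17.0 (95% identity over at least 50% of the length). Positions come from GENCODE M21 and promoter sequences from RefSeq (GRCm38.p6). Alternatives changed the pseudocount, filter, scaling, replicates, replicate block, samples in the fit and criterion.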

Additional observations from a re-analysis of the deposited data

How the results depend on the processing

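No member passed in RNA-seq, RNC-seq or TE under any alternative that kept the adjusted limit, and requiring a 1.5-fold change at an unadjusted p below 0.05 left 3 members in RNA-seq and 2 in RNC-seq, all higher, and 2 in TE, both lower. In RNA-seq 1109 of all 20352 genes met that criterion. The study's methods text and a figure legend set the fold limit on different scales and neither names TE. A limit of 1.5 on the log2 scale would leave 0 members in these 3 comparisons. The median RNA-seq change of the members stayed above 0, from 0.18 to 0.38, but the 34 members higher at an unadjusted p below 0.05 became 22 under rescaling, with 1 lower, and 18 in 1 fit over all 12 libraries. Their median RNC-seq change turned to -0.036 with median centring of the libraries, -0.050 with quantile normalization and -0.035 with rescaling without CT010467.1, and ranged from -0.0073 (without replicate 1 of Igf2bp3-/-) to 0.24 when single libraries were left out. For TE the leave-one-out range of the median was -0.35 to -0.043, and the count of members lower at an unadjusted p under 0.05, 3 as reported, was 16 with median centring, 10 with quantile normalization, 8 with rescaling and 0 without replicate 1 of Igf2bp3+/- or replicate 2 of Igf2bp3-/-. In Igf2bp3+/- the median loading fell to 0.43 under rescaling, and the number of members called, 52 in both directions, ranged from 32 to 46 with 1 replicate left out. In Igf2bp3-/- the 25 calls became 38 in 1 fit over all 12 libraries and ranged from 0 to 29 with 1 replicate left out. Rescaling moved the median of all genes from 0.05 to -0.07 in RNA-seq, from 0.13 to 0.017 in RNC-seq, from -0.09 to -0.29 for loading in Igf2bp3+/- and from -0.04 to -0.23 in Igf2bp3-/-. The causes were not tested.

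Of single members, Mrpl17 ranged from -0.49 to 0.0088 in RNA-seq, above 0 only without replicate 1 of Igf2bp3+/-, and the loading of Mrps5 in Igf2bp3+/- to -0.049 under rescaling and, with single replicates left out, from -0.054 (without replicate 3) to 0.31. Of 210 alternative values for the loading of 21 named members, 191 kept their side of the limit and their sign, 17 lost the call and 2 changed sign. With the replicate number as a block, 0 members were called in RNA-seq, RNC-seq and TE, 49 in the loading of Igf2bp3+/- and 25 in that of Igf2bp3-/-. Of the named members, the block removed the call of Mrps6 (adjusted p = 0.0539, limma). At an unadjusted p below 0.05 it gave 26 members higher in RNA-seq and 5 lower in TE. The assays shared a lysate per mouse, but it is not stated that equal numbers mark the same mouse. Correlations of deviations between RNA-seq and RNC-seq libraries of the same number ran from -0.104 to 0.205, and 4 of 6 RNC-seq libraries correlated best with their own number. Without counts, the depth behind low members such as Mrps35 cannot be stated.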
